A study of Mus musculus with 11 samples.

Results

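Toll-like receptor and NF-kB cytokine genes were examined in RNA from CRF1-expressing neurons of the mouse medial prefrontal cortex (mPFC CRF1+). The 10 genes, Tlr3, Tlr4, Myd88, Il1r1, Tnfrsf1a, Il6st, Nfkb1, Rela, Nfkbia and Hmgb1, were taken by symbol from the 53465 genes in the count files, and all 10 were found. CRF1 is the type 1 receptor of corticotropin-releasing factor, and in the CRF1:GFP reporter line the cells that express it carry green fluorescent protein. Cells were dissociated from the mPFC of single adult male CRF1:GFP mice and collected by fluorescence-activated cell sorting, so that each library is 1 mouse and n counts mice. The withdrawn group held 5 mice that had been injected with ethanol and had inhaled ethanol vapor intermittently for 5 to 6 weeks. These mice were 5 to 8 days into abstinence. The naïve group held 6 mice kept in air. Both groups received pyrazole, an inhibitor of alcohol dehydrogenase, and all mice of both groups carried the reporter. The sort selects cells by GFP, and any other RNA caught with them is amplified in the same library, each of which was made from 160 pg of RNA.

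Toll-like receptors recognise microbial molecules and molecules released by damaged cells. Through the adaptor MyD88, which interleukin-1 receptors also use, they activate NF-kB, a family of transcription factors held in the cytoplasm by IkB proteins until IkB is degraded. Tumour necrosis factor reaches NF-kB by a separate receptor, and cytokines of the interleukin-6 family signal through a shared receptor subunit to JAK kinases and STAT3. In brain this pathway is best known from microglia and astrocytes, and several of its genes are also expressed by neurons and by vascular cells.

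The libraries held between 7351567 and 22244869 counts on genes, and levels are given as CPM, counts scaled to the same normalized library total in every mouse. On that scale 3 counts equal 0.14 to 0.369 CPM, depending on the library. Crhr1, the gene for the sorted receptor, lay between 69.1 and 119 CPM in naïve and between 42.2 and 136 CPM in withdrawn mice, and the summed CPM of 6 general neuron markers was 8809 to 11632 in naïve and 5666 to 9278 in withdrawn mice. Slc17a7, a marker of glutamatergic neurons, had medians of 1423 and 1425 CPM in naïve and withdrawn mice, while Gad2, which inhibitory neurons express, lay between 11.9 and 62.4 CPM in naïve and between 7.52 and 130.1 CPM in withdrawn mice. The summed GABAergic markers ran from 71.7 to 308 CPM in naïve and from 26.3 to 698 CPM in withdrawn mice, with the highest value in withdrawn mouse 2. Markers of other cells were also counted. The summed CPM of 10 fibroblast markers was 17.6 to 92.2 in naïve mice, 39.5 in withdrawn mouse 2 and 394 to 1830.4 in the other withdrawn mice. Over all mice, Col3a1, Lum, Igf2 and Slc6a13 had a median under 1 CPM. In withdrawn mice alone their medians were 33.9, 0.672, 0.0467 and 1.01 CPM. The summed CPM of 9 endothelial markers was 3.18 to 786 in naïve and 39.5 to 667 in withdrawn mice. Of 13 microglial markers, 11 had a median under 1 CPM over all mice, the defining genes Cx3cr1 and P2ry12 among them. The sum of all 13 was 3.79 to 16.9 CPM in naïve and 11.6 to 44.8 CPM in withdrawn mice. Only 6 of the 13 had enough counts to be tested in edgeR, 4 with a log2 fold change above 0 and 2 below. Tmem119, also listed as a microglial marker, was the one of these 6 with an unadjusted p under 0.05. It was higher in withdrawn mice (log2 fold change 3.75, SE 1.47, adjusted p = 0.558, edgeR), with medians of 0.0275 and 7.78 CPM. For withdrawn mice 3, 4 and 5 a further label reads control with another animal number, and the deposit's design text counts 5 control and 6 ethanol animals, where titles and treatments give 6 naïve and 5 withdrawn. Groups follow title and treatment, and values without these 3 mice are given where they bear on a result.

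Because these are bulk libraries, a different share of some cell type and a different amount of RNA per cell cannot be told apart in any value below. Of the 10 genes, 8 passed the low-count filter of edgeR's quasi-likelihood test and Tlr3 and Tlr4 did not. The thresholds for a call were a log2 fold change above 0.6 in size together with an adjusted p not over 0.05. None of the 8 genes met them in edgeR, where 0.00585% of all 17093 tested genes did. DESeq2's Wald test also called 0 of the 10, where it called 1.66% of the genes to which it gave an adjusted p. Without adjustment, 3 of the 8 had a p under 0.05 in edgeR, namely Myd88, Tnfrsf1a and Il6st, where 7.22% of all tested genes had one. All 3 were higher in withdrawn mice, as were 5.0% of all tested genes at that p, and none was lower, where 2.22% were. In DESeq2 the unadjusted count was 4, with Tlr4 added, where 4.99% of the genes it tested were higher. The median log2 fold change of the 8 was 0.48 and that of all tested genes 0.02. It was above 0 for 7 of the 8 with each of the 3 normalizations, where 51.8% of all tested genes were above 0. The groups overlapped for all 10 genes. Among tested genes, 0.69% had the lowest withdrawn mouse above the highest naïve mouse and 0.257% had the reverse. The 10 genes were chosen with earlier results of these data known. Here and below, the shares of all tested genes are therefore given for description, and no test was made on the counts.

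**Figure D1:**
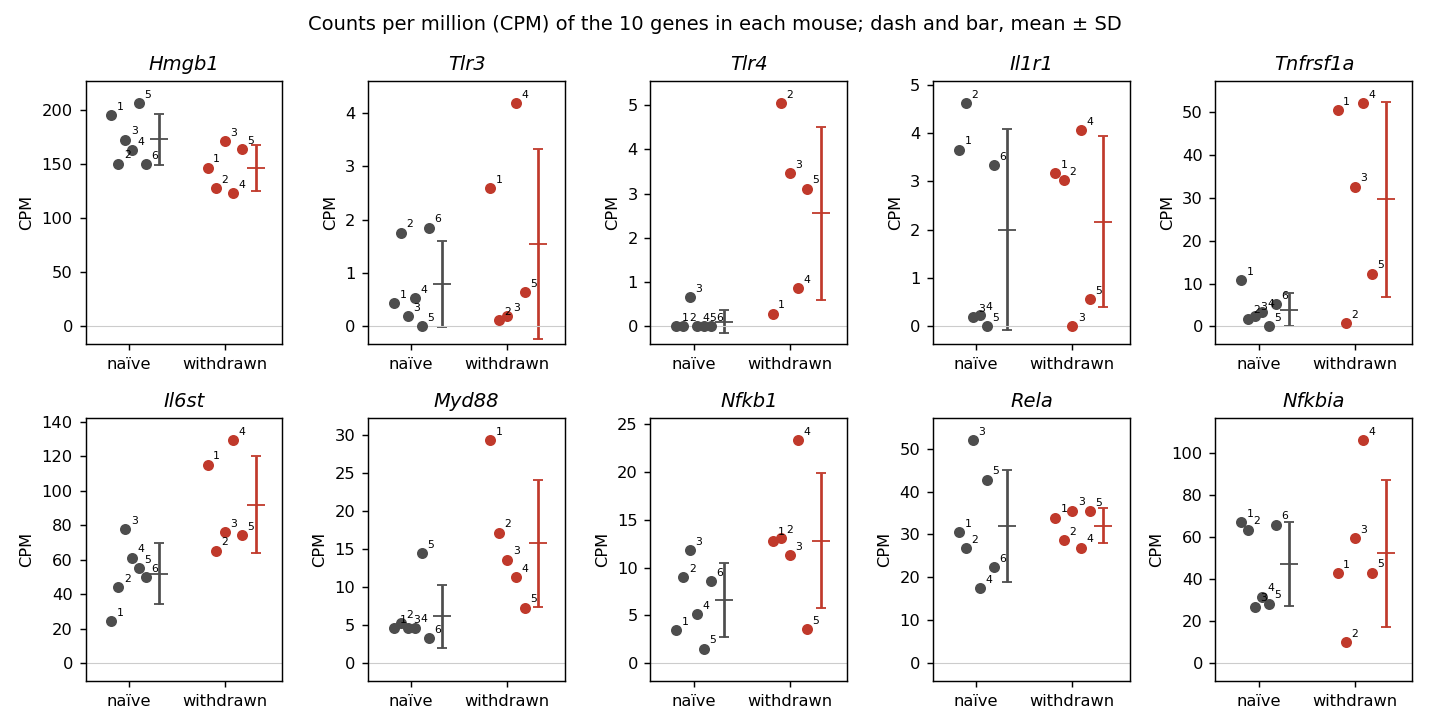
CPM of each of the 10 genes (vertical axes, linear, 1 per gene) in 6 naïve (grey) and 5 withdrawn (red) mice. Points are mice with their replicate numbers, and the dash and bar give the mean ± SD. Tlr4 was at 0 in all naïve mice but replicate 3, and withdrawn mouse 2 sat lowest of its group for Tlr3, Tnfrsf1a, Il6st and Nfkbia.

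Nfkbia encodes IkBα, the inhibitor that holds NF-kB in the cytoplasm, and its gene is a known target of NF-kB. The base sequence before its start is shown because it is where the pathway under study is known to act back on a member. RefSeq's promoter table for GRCm38.p6 covers the 250 bases before and the first 50 bases after each gene start, and it held windows for 8 of the 10 genes. The consensus site of NF-kB, searched by its name as the 10-base κB motif on both strands, matched in the windows of 3 of the 8, Tlr3, Il1r1 and Nfkbia. It matched in 5.14% of the 27025 genes in the table and in 4.51% of its 32851 windows. The 250 bases upstream of Nfkbia, chr12:55492648-55492897 on the minus strand of GRCm38.p6, are printed 5′ to 3′ with the match in capitals.
Nfkbia: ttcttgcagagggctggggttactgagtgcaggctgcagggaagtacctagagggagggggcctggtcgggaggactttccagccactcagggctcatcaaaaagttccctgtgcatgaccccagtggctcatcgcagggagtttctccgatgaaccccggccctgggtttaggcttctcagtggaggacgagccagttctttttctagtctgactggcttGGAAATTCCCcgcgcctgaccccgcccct
The match lies at bases -29 to -20 from the start and reads GGGAATTTCC on the opposite strand. In the Tlr3 window the match is GGGAGTTTCC at -211 to -202, on the strand of the gene. The match of Il1r1, GGAATGCCCC in its second window, lies at -232 to -223 on the opposite strand. A match is a description of these letters and shows no binding, and none of the 3 genes with a match had an unadjusted p under 0.05 in edgeR or DESeq2.

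Hmgb1 encodes a chromatin protein that, when released from cells, acts as a ligand of TLR4 and of the receptor RAGE. It had the highest level per length of the 10 genes in naïve mice and lies on chromosome 5 of GRCm38 (149046702 to 149184489, minus strand). In naïve mice 1 to 6 it was counted at 195, 150.3, 172, 163, 206 and 149.6 CPM, and withdrawn mice 1 to 5 had 147, 128, 171, 123 and 164 CPM. Withdrawn mice 1, 2 and 4 were below every naïve mouse, and the ranges overlapped through withdrawn mice 3 and 5. The group means (± SD, here and below with n = 6 naïve and n = 5 withdrawn mice) were 173 ± 23.4 and 146 ± 21.3 CPM. The log2 fold change, with its standard error (SE), was -0.24 (SE 0.15, adjusted p = 0.816 in edgeR; two-sided exact permutation test, p = 0.0779). With 5 mice against 6 the smallest p that this exact test can give is 0.004329, and the 10 exact p values of the 10 genes are not adjusted. The files name 11 pseudogenes of Hmgb1, so that reads may have been lost to or split with these copies. Of its 5023 exonic bases, 37 are shared with Mm2pr on the same strand and 42 with Uspl1 on the opposite strand. Hmgb2, a close relative, had a median of 1.05 CPM in naïve and 3.22 CPM in withdrawn mice (log2 fold change 1.92, SE 0.998, unadjusted p = 0.0749, edgeR), and Hmgb3 had medians of 15 and 13.8 CPM. Ager, the gene for RAGE, had at most 13 counts in any mouse.

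Tlr4 encodes the receptor for bacterial lipopolysaccharide, which signals through MyD88 and, from endosomes, through a second adaptor. It lies on chromosome 4 (66827584 to 66930284, plus strand), with no other annotated gene on its exons. Of the naïve mice, 5 had no Tlr4 count and naïve mouse 3 had 7, and withdrawn mice 1 to 5 had 4, 45, 74, 7 and 44 counts. In CPM the withdrawn values were 0.288, 5.04, 3.46, 0.861 and 3.11, and naïve mouse 3 had 0.656. Withdrawn mouse 1 therefore lay within the naïve range and the other 4 withdrawn mice above it. The group means were 0.109 ± 0.268 CPM (naïve) and 2.55 ± 1.96 CPM (withdrawn), and a count of 0 in a naïve library allows up to 0.165 to 0.322 CPM. The difference had the smallest exact p of the 10 genes (p = 0.00866, two-sided exact permutation test of log2 CPM). The counts were too few for the filter of the edgeR test. Without the filter the log2 fold change was 4.55 (SE 1.51, adjusted p = 0.403), and in DESeq2's Wald test it was 4.66 (SE 1.45, adjusted p = 0.066), above the 0.05 threshold in both. Without the 3 mice whose labels conflict, DESeq2 gave 4.71 with an adjusted p of 0.565.

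The genes whose products hold lipopolysaccharide for TLR4 were as sparse as Tlr4. Cd14 had a median of 0 CPM in naïve and 1.94 CPM in withdrawn mice and was at 0 in 7 of the 11 mice. Ly96, which encodes the MD-2 subunit, had medians of 0.0291 and 0.861 CPM (log2 fold change 1.22, SE 1.37, adjusted p = 0.912, edgeR). The microglial defining genes Cx3cr1 and P2ry12 had at most 18 and 17 counts in any mouse. Tmem119 had 7.78, 0, 6.87, 14.4 and 7.92 CPM in withdrawn mice 1 to 5 and at most 1.69 CPM in naïve mice. Thus 4 of 5 withdrawn mice were above every naïve mouse, and withdrawn mouse 2, the highest in Tlr4, had no Tmem119 count. The microglial markers were divided in withdrawn mouse 2. It had the highest Csf1r and C1qa of all mice, 2.91 and 3.92 CPM, and no count of P2ry12, Aif1, C1qb, Ctss and Siglech. This mouse had a sum of the 13 microglial markers of 12.6 CPM, within the naïve range, and withdrawn mouse 1, the lowest of its group in Tlr4, had 17.9 CPM. Naïve mouse 3, the single naïve mouse with Tlr4 counts, had the highest naïve microglial sum, 16.9 CPM, and withdrawn mouse 4, with 7 Tlr4 counts, had the highest of all mice, 44.8 CPM. The part of microglial RNA in the Tlr4 values was not tested. Withdrawn mouse 2 also had the lowest fibroblast sum of its group, 39.5 CPM. The other withdrawn mice, all with Tmem119 counts, had fibroblast sums of 394 to 1830.4 CPM. The part of fibroblast RNA in the Tmem119 values was not tested.

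Tlr3 encodes an endosomal receptor for double-stranded RNA that does not use MyD88. It lies on chromosome 8 (45395665 to 45411080, minus strand), and 381 of its 5207 exonic bases are shared with Gm45542 on the opposite strand. Naïve mice 1 to 6 had 0.430, 1.76, 0.187, 0.524, 0 and 1.85 CPM and withdrawn mice 1 to 5 had 2.59, 0.112, 0.187, 4.18 and 0.637 CPM, from at most 36 counts. Withdrawn mice 1 and 4 were above the naïve range and the other 3 within it, and the difference did not exceed the spread among the mice (two-sided exact permutation test, p = 0.563; DESeq2 log2 fold change 1.01, SE 1.12, adjusted p = 0.841).

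The other Toll-like receptors were near or at 0. None of the 12 listed receptor genes passed the low-count filter, and 8 of the 12 had no count in at least 6 of the 11 mice. Tlr2 had no count in any mouse, and Tlr11 and Tlr13 had at most 1 count each. Tlr7, an endosomal receptor for single-stranded RNA, reached 23.1 CPM in a single withdrawn mouse, against a median of 1.49 CPM in that group and at most 1.5 CPM in naïve mice. Summed over the 12 genes, the CPM was 0 to 4.5 in naïve mice and 3.7 to 32.3 in withdrawn mice.

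Myd88 encodes the adaptor that links most Toll-like receptors and the interleukin-1 receptors to IRAK kinases. It lies on chromosome 9 (119335934 to 119341411, minus strand), and 290 of its 2576 exonic bases are shared with Acaa1a on the opposite strand. In CPM, naïve mice 1 to 6 had 4.62, 5.22, 4.59, 4.66, 14.4 and 3.27 CPM, and withdrawn mice 1 to 5 had 29.3, 17.1, 13.6, 11.3 and 7.29 CPM. Withdrawn mice 1 and 2 were above every naïve mouse, and the other 3 were above every naïve mouse but replicate 5. On average Myd88 stood at 6.13 ± 4.11 CPM (naïve) and 15.7 ± 8.40 CPM (withdrawn). The log2 fold change was 1.36 (SE 0.50), a 2.56-fold higher level, with an unadjusted p of 0.0173 and an adjusted p of 0.495 in edgeR's quasi-likelihood test (two-sided exact permutation test, p = 0.0173). DESeq2 gave 1.37 with an adjusted p of 0.137. Without naïve mouse 5 the unadjusted p in edgeR was 0.00098 and without withdrawn mouse 1 it was 0.0883, with adjusted p values of 0.153 and 0.985. Withdrawn mouse 1, the highest in Myd88, had the highest fibroblast sum of all mice, 1830.4 CPM. Withdrawn mouse 2, with the lowest fibroblast sum of its group, had the second highest Myd88, above every naïve mouse. The part of fibroblast RNA in the Myd88 values was not tested.

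Around MyD88, the list of co-receptors, adaptors and kinases held 24 genes, of which 22 passed the filter. Myd88 was the only one with an unadjusted p under 0.05 in edgeR, and 15 of the 22 had a log2 fold change above 0, with a median of 0.11. Tirap, which brings MyD88 to the membrane, had a log2 fold change of 1.06 (SE 0.90), and Ticam1, the adaptor of TLR3, had 1.45 (SE 1.37), neither with an unadjusted p under 0.05. Irak1, the next kinase, and Tollip, an inhibitor of the same step, were expressed at medians of 69.0 and 171 CPM in naïve mice, with log2 fold changes of 0.03 and 0.09 (SEs 0.22 and 0.17).

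Il1r1 encodes the signalling receptor of interleukin-1 and lies on chromosome 1 (40225080 to 40317257, plus strand). Its level was split, since naïve mice 1 to 6 had 3.65, 4.61, 0.187, 0.233, 0 and 3.33 CPM, and withdrawn mice 1 to 5 had 3.17, 3.02, 0, 4.06 and 0.566 CPM. In each group some mice lay above 3 CPM and the others below 0.6 CPM, with none between. The log2 fold change was 0.10 (SE 1.31, adjusted p = 0.993, edgeR; two-sided exact permutation test, p = 0.749), an error that leaves a change of severalfold in either direction undetectable here. Naïve mice 1, 2 and 6, which held the 3 naïve values above 3 CPM, also held the 3 highest naïve sums of endothelial markers, 538, 520 and 786 CPM, and withdrawn mouse 4 had 667 CPM. Withdrawn mouse 1 was above 3 CPM in Il1r1 with an endothelial sum of 39.5 CPM. The part of endothelial RNA in the Il1r1 values was not tested.

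Il1rap, the co-receptor that Il1r1 needs, was more evenly expressed, between 21.5 and 96.2 CPM in naïve and 65.7 and 88.9 CPM in withdrawn mice. The ligands were near absent: Il1a had at most 6 counts and Il1b at most 43 counts in any mouse. Of 14 genes of interleukin-1 ligands and receptors 8 passed the filter, and Il18 was the only one with an unadjusted p under 0.05. Il18 encodes a cytokine of the same family that is stored as a precursor. It lay between 0.750 and 8.64 CPM (median 5.83) in naïve mice and between 4.03 and 27.2 CPM (median 22.3) in withdrawn mice, with 3 of 5 withdrawn mice above the naïve range (log2 fold change 1.78, SE 0.65, unadjusted p = 0.0164, adjusted p = 0.491, edgeR).

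Tnfrsf1a encodes TNFR1, the widely expressed receptor for tumour necrosis factor, and lies on chromosome 6 (125349362 to 125362484, plus strand) without a second gene on its exons. Naïve mice 1 to 6 had 10.8, 1.76, 2.53, 3.32, 0 and 5.13 CPM, and withdrawn mice 1 to 5 had 50.6, 0.672, 32.7, 52.1 and 12.3 CPM. Withdrawn mice 1, 3, 4 and 5 were above every naïve mouse, and withdrawn mouse 2 was below every naïve mouse but replicate 5, which had no count. Tnfrsf1a was the only one of the 10 genes for which all withdrawn mice except replicate 2 exceeded all naïve mice, a pattern seen in 3.1% of tested genes. Averaged by group, Tnfrsf1a stood at 3.93 ± 3.79 CPM (naïve) and 29.7 ± 22.9 CPM (withdrawn). Its log2 fold change, 2.92 (SE 1.01), a 7.58-fold higher level, was the largest of the 8 genes tested, with an unadjusted p of 0.012 and an adjusted p of 0.453 in edgeR. In DESeq2 it was 2.97 with an adjusted p of 0.0927, and the exact test on all 11 mice gave p = 0.0736 (two-sided exact permutation test). Without withdrawn mouse 2 the log2 fold change was 3.23 with an adjusted p of 0.121 in edgeR, in a fit that called 1.06% of all genes and none of the 10 genes described here.

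Among withdrawn mice, but not among naïve mice, a higher Tnfrsf1a mostly went with a higher summed CPM of the fibroblast markers. That sum was 1830.4, 39.5, 1071.7, 1573.2 and 394 CPM in withdrawn mice 1 to 5, so that the mice with the most Tnfrsf1a, 1 and 4, had the highest sums and mouse 2 had the lowest of its group in both. Within naïve mice the order was not the same, since naïve mouse 1 had the highest Tnfrsf1a and the lowest fibroblast sum, 17.6 CPM. Of the 10 fibroblast markers, 8 passed the filter, all 8 had a log2 fold change above 0 and 7 an unadjusted p under 0.05. The part of fibroblast RNA in the Tnfrsf1a values was not tested.

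**Figure D2:**
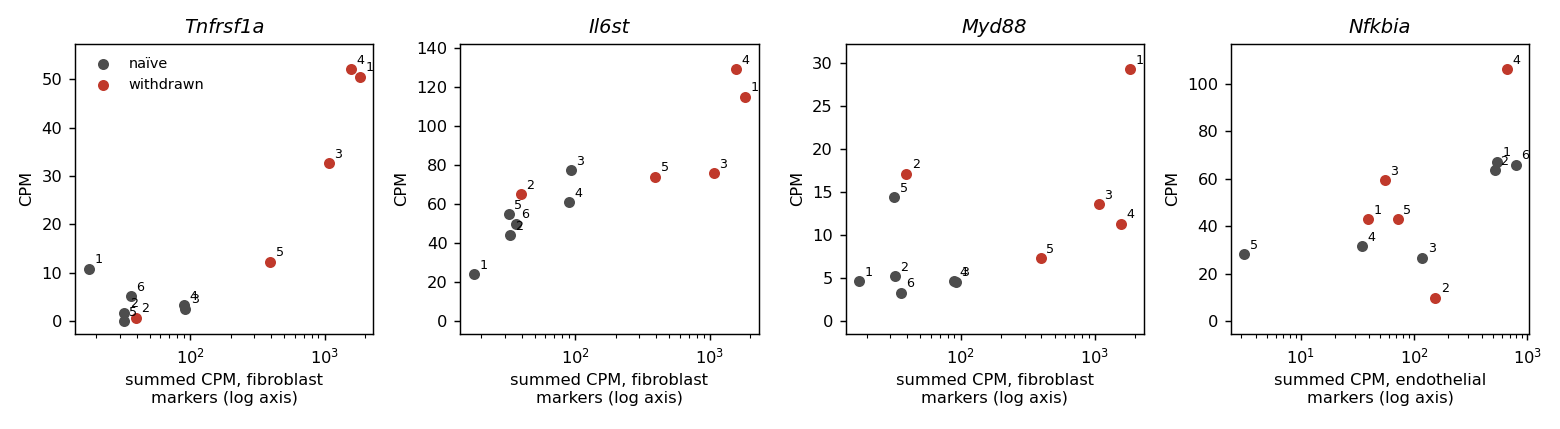
CPM of Tnfrsf1a, Il6st and Myd88 against the summed CPM of 10 fibroblast markers, and of Nfkbia against the sum of 9 endothelial markers (horizontal axes logarithmic, vertical axes linear), in naïve (grey) and withdrawn (red) mice. Points are mice with their replicate numbers. Withdrawn mouse 2 lies among the naïve mice on the fibroblast axis and for Tnfrsf1a, and above them for Myd88.

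Among 13 genes of tumour necrosis factor ligands, receptors and adaptors, 10 passed the filter, and 8 of these had a log2 fold change above 0, with a median of 0.68. Tnf itself had at most 2 counts in any mouse. The second receptor, Tnfrsf1b, had a log2 fold change of -0.06 (SE 1.35) and medians of 1.99 and 2.06 CPM in naïve and withdrawn mice. Besides Tnfrsf1a, 1 gene of the list had an unadjusted p under 0.05, Fadd, the adaptor that connects death receptors to caspases, which is named after its values were seen. Fadd lay between 0 and 3.00 CPM in naïve and between 3.11 and 13.4 CPM in withdrawn mice, so that the groups did not overlap (log2 fold change 2.54, SE 0.93, unadjusted p = 0.0169, adjusted p = 0.495, edgeR). Ripk1, the kinase of the receptor complex, had medians of 4.41 and 18.7 CPM (log2 fold change 1.66, SE 0.87, unadjusted p = 0.0762, edgeR).

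Il6st encodes gp130, the signalling subunit shared by interleukin-6, leukaemia inhibitory factor, ciliary neurotrophic factor and related cytokines. It lies on chromosome 13 (112464070 to 112510086, plus strand). The CPM of naïve mice 1 to 6 was 24.2, 44.0, 77.5, 61.2, 54.9 and 49.9 CPM, and withdrawn mice 1 to 5 had 115, 65.3, 75.9, 129 and 74.1 CPM. All 5 withdrawn mice were above every naïve mouse but replicate 3, and withdrawn mice 1 and 4 were above that mouse too. The group means were 51.9 ± 17.8 CPM (naïve) and 92.0 ± 28.4 CPM (withdrawn). The log2 fold change of 0.82 (SE 0.28), a 1.77-fold higher level, had the smallest unadjusted p of the 8 genes tested, 0.00998, and an adjusted p of 0.423 in edgeR (two-sided exact permutation test, p = 0.0173). DESeq2 gave 0.86 with an adjusted p of 0.186. Withdrawn mice 1 and 4, the highest in Il6st, had the 2 highest fibroblast sums, and withdrawn mouse 2 had 65.3 CPM of Il6st at a fibroblast sum of 39.5 CPM. The part of fibroblast RNA was not tested for this gene either.

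The list of gp130 cytokines, receptors and JAK-STAT3 held 20 genes, of which 15 passed the filter. A log2 fold change above 0 was found for 13 of the 15, with a median of 0.44 (0.28 without withdrawn mouse 4 and 0.79 without naïve mouse 4), and 4 had an unadjusted p under 0.05, all higher. Apart from Il6st these were Ctf1, Il11ra1 and Socs3, named after their values were seen. Ctf1, which encodes the cytokine cardiotrophin 1, lay between 0 and 2.21 CPM in naïve and 2.55 and 13.3 CPM in withdrawn mice (log2 fold change 2.89, SE 1.14, adjusted p = 0.563, edgeR). Il11ra1, the receptor chain for interleukin-11, had medians of 16.5 and 30.7 CPM (log2 fold change 0.90, SE 0.35, adjusted p = 0.543). Socs3, an inhibitor of JAK kinases that STAT3 induces, had medians of 3.88 and 12.8 CPM with a range of 0.112 to 111 CPM among withdrawn mice (log2 fold change 2.69, SE 1.15, adjusted p = 0.644). The ligand Il6 had at most 17 counts in any mouse. The partner chain Lifr was expressed at medians of 36.2 and 30.5 CPM (log2 fold change -0.03, SE 0.40), and Stat3 at 74.4 and 83.2 CPM (log2 fold change 0.44, SE 0.29).

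**Figure D3:**
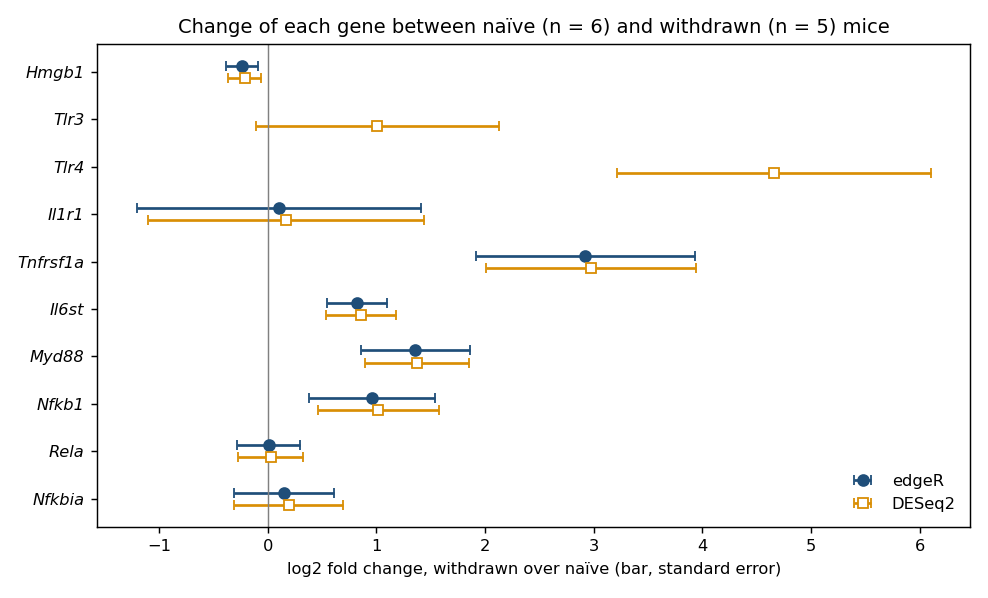
Log2 fold change of each of the 10 genes, withdrawn over naïve (horizontal axis), with its standard error as a bar, from edgeR (filled circles) and DESeq2 (open squares). Tlr3 and Tlr4 were below the filter of the edgeR test and have the DESeq2 value alone. Tnfrsf1a, Il6st, Myd88 and Nfkb1 lie above 0 by more than their standard errors in both tests. Hmgb1 lies below 0 by more than its standard error in both, and none of the 10 met the thresholds. The directions of Il1r1, Rela and Nfkbia changed in some of the alternative fits.

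Nfkb1 encodes the precursor of the p50 subunit of NF-kB and lies on chromosome 3 (135584655 to 135691547, minus strand). Naïve mice 1 to 6 had 3.44, 9.01, 11.8, 5.12, 1.49 and 8.58 CPM, and withdrawn mice 1 to 5 had 12.8, 13.1, 11.3, 23.4 and 3.54 CPM. Withdrawn mice 1, 2 and 4 were above every naïve mouse, while withdrawn mouse 5 was above naïve mice 1 and 5 only. The group means were 6.58 ± 3.88 CPM (naïve) and 12.8 ± 7.06 CPM (withdrawn), and the log2 fold change of 0.96 (SE 0.58) was not past the threshold with or without adjustment (unadjusted p = 0.12, adjusted p = 0.804, edgeR; two-sided exact permutation test, p = 0.13). Without withdrawn mouse 4 it was 0.64 (SE 0.61).

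Rela encodes p65, the subunit that carries the main activation domain, and lies on chromosome 19 (5637483 to 5648130, plus strand). Naïve mice 1 to 6 had 30.5, 26.7, 52.0, 17.5, 42.7 and 22.4 CPM, and withdrawn mice 1 to 5 had 33.9, 28.7, 35.5, 26.9 and 35.4 CPM. All withdrawn values lay within the naïve range. The group means were 32.0 ± 13 CPM (naïve) and 32.1 ± 4.02 CPM (withdrawn), and the coefficient of variation was 40.8% in naïve and 12.5% in withdrawn mice, a difference in spread that was not tested. The log2 fold change was 0.0068 (SE 0.29, adjusted p = 0.997, edgeR; two-sided exact permutation test, p = 0.736). Of the 5 NF-kB subunit genes all passed the filter and none had an unadjusted p under 0.05. Nfkb2 had medians of 1.12 and 4.95 CPM (log2 fold change 1.94, SE 1.22), and Relb 12.7 and 10.1 CPM (log2 fold change -0.51, SE 0.88).

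Nfkbia, whose upstream sequence is printed above, lies on chromosome 12 (55489410 to 55492647, minus strand). Its CPM was 67.1, 63.5, 26.7, 31.6, 28.2 and 65.8 in naïve mice 1 to 6, and withdrawn mice 1 to 5 had 42.8, 9.85, 59.4, 106 and 42.9 CPM. The withdrawn group spanned the naïve range on both sides, with mouse 4 above and mouse 2 below every naïve mouse. The group means were 47.2 ± 20.2 CPM (naïve) and 52.2 ± 35.1 CPM (withdrawn), with a log2 fold change of 0.15 (SE 0.46, adjusted p = 0.972, edgeR; two-sided exact permutation test, p = 0.879). Naïve mice 1, 2 and 6, the highest naïve mice in Nfkbia, had the 3 highest naïve sums of endothelial markers, and withdrawn mouse 4, the highest of all in Nfkbia, had the highest sum of its group, 667 CPM. Withdrawn mouse 2, the lowest in Nfkbia, had the second highest endothelial sum of its group, 154 CPM. The part of endothelial RNA in these values was not tested. Without withdrawn mouse 4 the log2 fold change was -0.28 and without the 3 mice with conflicting labels it was -0.87 (SE 0.60), so no direction is given.

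The IkB proteins, their kinases and the negative regulators of the pathway made up 14 genes, of which 13 passed the filter. None had an unadjusted p under 0.05 in edgeR, and 9 of 13 had a log2 fold change above 0, with a median of 0.24. Chuk, Ikbkb and Ikbkg, which encode the catalytic subunits and the scaffold of the IkB kinase, were all expressed, at naïve medians of 80.4, 72.0 and 42.4 CPM. Ikbkg, named after its values were seen, lay between 31.9 and 45.8 CPM in naïve and between 46.0 and 56.0 CPM in withdrawn mice, so that the groups did not overlap although the log2 fold change was 0.28 (SE 0.18, unadjusted p = 0.129, edgeR). Tnfaip3, which encodes the inhibitor A20, had medians of 14.2 and 12.4 CPM.

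Of 26 known NF-kB target genes, 14 passed the filter, and 2 of these had an unadjusted p under 0.05, both higher. Csf1 lay between 7.03 and 12.4 CPM in naïve and 18.7 and 51.1 CPM in withdrawn mice (log2 fold change 1.71, adjusted p = 0.0931, edgeR), and it was the only pathway gene called by DESeq2 (adjusted p = 1.78e-05). Icam1, an adhesion molecule for leukocytes named after its values were seen, had medians of 1.30 and 23.4 CPM with 0 in the lowest mouse of each group (log2 fold change 2.83, SE 1.24, adjusted p = 0.651, edgeR). Each of the other tested genes, Nfkbia among them, had an unadjusted p of at least 0.126 in edgeR, and their log2 fold changes ran from -0.77 to 1.94. Ccl2, a chemokine that the pathway induces, had at most 5 counts in any mouse.

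**Figure D4:**
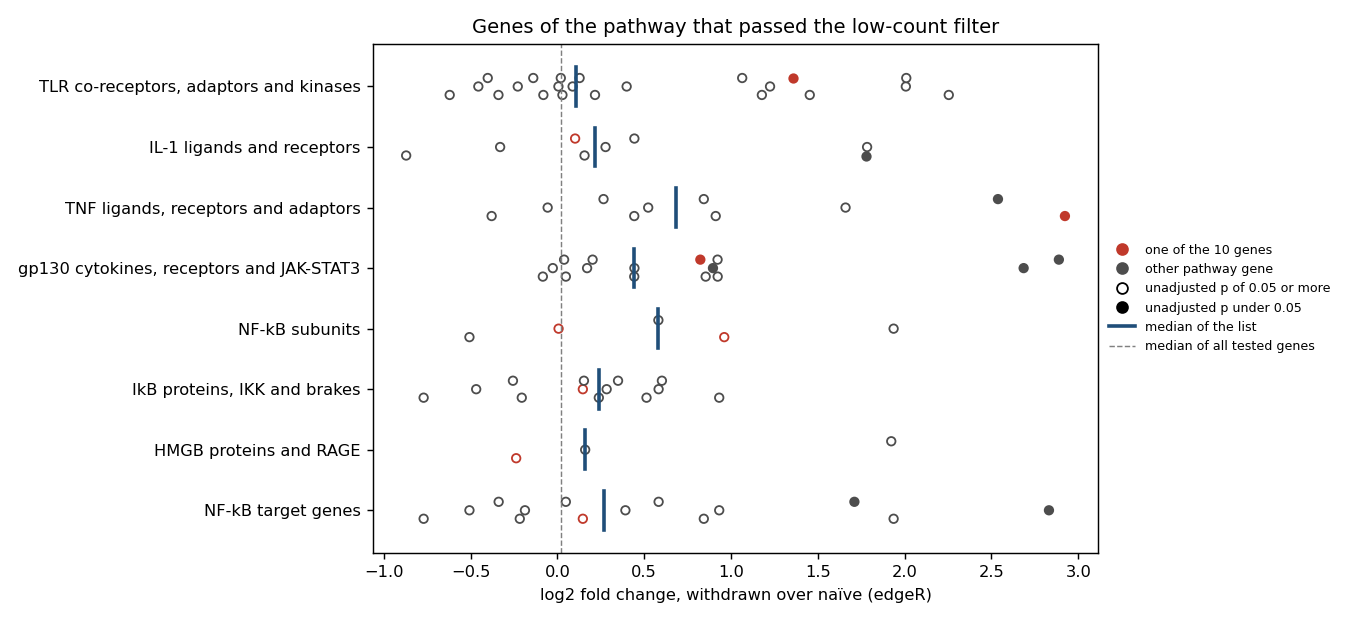
Log2 fold change, withdrawn over naïve, of every pathway gene that passed the low-count filter (horizontal axis), by list (vertical axis). Points are genes, red for the 10 genes described, filled at an unadjusted p under 0.05, and lines mark the median of each list and of all tested genes. The filled points all lie to the right of 0, and some genes stand in more than 1 list. The median lay below 0 for the HMGB list when withdrawn mouse 2 was left out, for the list of adaptors and kinases in edgeR without the 3 mice with conflicting labels, and for the NF-kB targets in DESeq2 without these mice.

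Outside the 10 genes, the lists held 112 genes, of which 74 passed the filter. Without adjustment 7 of the 74 (9.46%) were higher in withdrawn mice, where 5.0% of all tested genes were, and 0 were lower, where 2.22% were. The lowest withdrawn mouse exceeded the highest naïve mouse for 4 of the 74, namely Fadd, Ctf1, Ikbkg and Csf1, where 0.69% of tested genes showed that. The median log2 fold change of the 74 was 0.28. The lists share genes with each other, were chosen with earlier results of these data known, and rest on the same mice throughout. These counts are therefore a description and no test was made on them.

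To compare the genes with each other, counts were divided by exonic length and scaled to the same total in each mouse, which gives TPM, a level per length. In naïve mice the order of mean TPM levels was Hmgb1 at 101 ± 16.1, Nfkbia at 85.3 ± 36.4, Rela at 31 ± 14.0, Il6st at 14.1 ± 5.36, Myd88 at 7.19 ± 5.32, Tnfrsf1a at 4.04 ± 3.24, Nfkb1 at 1.65 ± 1.05, Il1r1 at 0.917 ± 1.01, Tlr3 at 0.464 ± 0.502 and Tlr4 at 0.060 ± 0.147 (SD, n = 6). The inhibitor Nfkbia was thus listed above the subunits Rela and Nfkb1 that it binds, and the receptors Il1r1, Tlr3 and Tlr4 came last. Of the neighbours in this order, Rela and Il6st were the only pair in which the first exceeded the second in 6 of 6 naïve mice. Hmgb1 exceeded Nfkbia in 3 of 6 naïve mice, Tnfrsf1a exceeded Nfkb1 in 3 of 6 and Il1r1 exceeded Tlr3 in 3 of 6, so that these neighbours did not differ beyond their spread. The same held for Myd88 over Tnfrsf1a (4 of 6), Nfkb1 over Il1r1 (5 of 6) and Tlr3 over Tlr4 (4 of 6). Their mean log2 differences of 1.42, 1.43 and 1.59 were smaller than their SDs of 3.13, 1.87 and 1.90. The mean TPM of Hmgb1 lay at the 89.8th percentile of the tested genes and that of Nfkb1 at the 15.9th.

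In withdrawn mice the order of mean TPM was Nfkbia at 105 ± 78.4, Hmgb1 at 91.6 ± 8.36, Tnfrsf1a at 36.9 ± 30.05, Rela at 32.9 ± 2.78, Il6st at 26.6 ± 10.1, Myd88 at 19.3 ± 10.5, Nfkb1 at 3.45 ± 2.16, Tlr4 at 1.42 ± 1.08, Il1r1 at 1.12 ± 0.951 and Tlr3 at 0.996 ± 1.20 (SD, n = 5). Tnfrsf1a moved from the sixth place in naïve to the third in withdrawn mice, with 0.818 TPM in withdrawn mouse 2 and up to 71.1 TPM in the others.

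**Figure D5:**
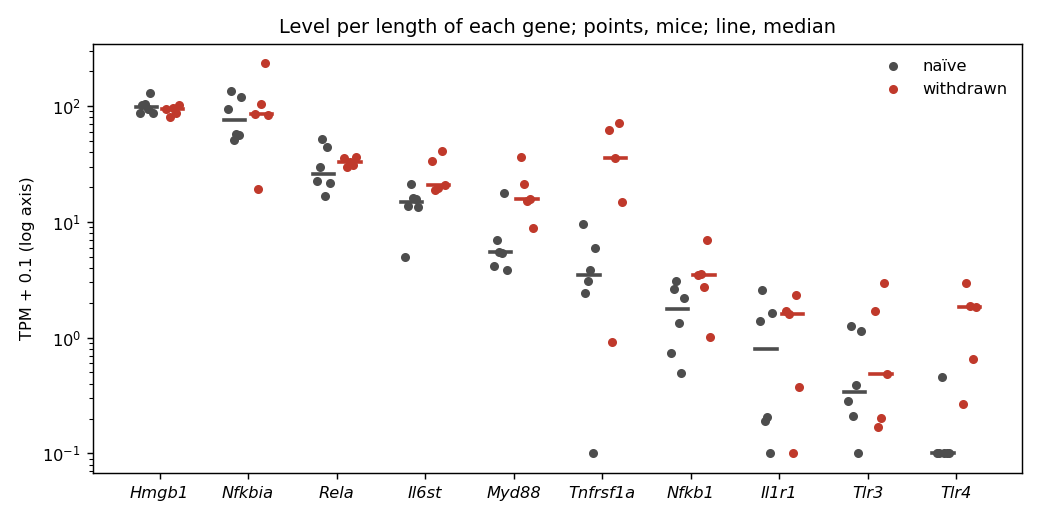
Level per exonic length of the 10 genes in TPM plus 0.1 (vertical axis, logarithmic), in order of the naïve mean. Points are mice, naïve in grey and withdrawn in red, and lines are group medians. Hmgb1, Nfkbia and Rela head the order in naïve mice, and points at the bottom of the axis are mice with no count.

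The extremes of the 10 genes were not spread evenly over the mice. Withdrawn mouse 4 was the highest of its group for 6 genes (Tlr3, Il1r1, Tnfrsf1a, Il6st, Nfkb1 and Nfkbia) and the lowest for Rela and Hmgb1. This library had the fewest counts on genes, 7351567, and the largest share of reads outside annotated exons, 48.1%. It also had the lowest sum of general neuron markers of all mice, 5666 CPM. Its sums of microglial and astrocyte markers were the highest of all mice, 44.8 and 655 CPM. So were its sums of mural cell, red blood cell and oligodendrocyte precursor markers, 209, 194 and 27.7 CPM. Its fibroblast sum, 1573.2 CPM, was the second highest of all mice. By contrast, its oligodendrocyte sum, 137 CPM, lay within the naïve range. Withdrawn mouse 2 was the lowest of its group for 4 genes (Tlr3, Tnfrsf1a, Il6st and Nfkbia) and the highest for Tlr4, in the library with the second lowest count, 8696939. Naïve mouse 5 had no count for Tlr3, Tlr4, Il1r1 and Tnfrsf1a and the highest naïve Myd88 and Hmgb1, in the library with the fewest genes detected, 15585, and the smallest share of reads outside exons, 5.77%. The part of these library properties and marker sums in the values was not tested.

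In withdrawn mice 1 and 2, whose labels do not conflict, Myd88 and Nfkb1 were above every naïve mouse and Hmgb1 was below every naïve mouse. These were 3 of the 10 genes, where 10.6% of the tested genes had groups that did not overlap in that comparison of 2 mice with 6 (5.34% higher and 5.3% lower), and none was called. The log2 fold change was then 1.88 for Myd88 (SE 0.67, adjusted p = 0.759, edgeR), 2.68 for Tnfrsf1a (SE 1.37) and 0.76 for Il6st (SE 0.38).

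For each of the 8 genes tested, the genes most like it were sought among 9798 others with a median of at least 10 CPM, by Pearson's r of log2 CPM over the 11 mice. Since these are the highest of 9798 values, no p is given, and all points share the depth and composition of the same libraries. Tnfrsf1a was most like Ssr3 (r = 0.98, Spearman's rho = 0.95) and Sh3pxd2a (r = 0.96, rho = 0.92), and Nfkbia was most like Itm2a (r = 0.96, rho = 0.85) and Gstm1 (r = 0.94, rho = 0.85). Hmgb1 was most like Aimp2 (r = 0.96, rho = 0.88) and Gm42517 (r = 0.96, rho = 0.95), and Il1r1 most like Ppp3cc (r = 0.95, rho = 0.74) and Sema5a (r = 0.87, rho = 0.87). Nfkb1 was most like Fam110a (r = 0.94, rho = 0.78) and Jup (r = 0.93, rho = 0.96). Il6st was most like Tgfbr1 (r = 0.92, rho = 0.86) and Tgfbr2 (r = 0.91, rho = 0.68), which encode the receptor chains for transforming growth factor beta. Myd88 was most like Galk1 (r = 0.90, rho = 0.82) and Tmeff2 (r = 0.87, rho = 0.85), and Rela most like Smcr8 (r = 0.89, rho = 0.84) and Nutf2 (r = 0.83, rho = 0.87). No partner was shared by a pair of these genes. After subtraction of the group means the r of these pairs ran from 0.75 to 0.97, and without the 2 mice farthest from the median of each gene from 0.72 to 0.95.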

How the data were processed

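RNA of sorted mPFC CRF1+ cells from 6 naïve and 5 withdrawn mice was sequenced. The deposited values are raw counts per gene, which the authors made by trimming with cutadapt 1.18, alignment to GRCm38 with STAR 2.5.2a using Ensembl release 91, and counting with HTSeq 0.11.0. The strand setting is not given in the sources used here, so genes that share exonic bases have uncertain counts. Rows that tally reads outside single genes, 18.9% to 58.0% of the total, were left out. Symbols, positions and lengths came from GENCODE M21 on the same assembly.

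Mice were grouped by title and treatment. Counts were compared with edgeR 4.0.16 in R 4.3.3 (TMM, filterByExpr with a minimum count of 10 and a total of 15, quasi-likelihood test, Benjamini-Hochberg over 17093 genes). DESeq2 1.42.0, limma 3.58.1 (voom with quality weights) and other normalizations and filters were alternatives, and the scripts were tested on simulated data. CPM used TMM library sizes, log2 CPM a prior count of 2, and exact tests all 462 splits of the mice (SciPy 1.17.1). Differences between 2 libraries exceeded sampling noise in all 55 pairs (chi-square per degree of freedom at least 25.6). Intervals and floors cover counting error only, because amplified reads are not independent molecules, and nothing in the sources names separate batches.

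The 10 genes and the pathway and marker lists were chosen with earlier results of these data known. The genes named were the 10, in each list the genes called, otherwise the tested gene with the smallest unadjusted p in each direction if that was under 0.05, the 2 genes most like each of the 8 that passed the filter, and Crhr1, Slc17a7, Gad2 and the cell type markers. Genes named besides are given as named after their values were seen or as members of the pathway described by their role. The symbol Dlx6os1 of the marker lists matched no single gene. A further microglial marker of those lists is not reported here and was left out of the sums.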

Additional observations from a re-analysis of the deposited data

Results flagged for a closer look

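Among 20 sets of log2 CPM values, 1 for each of the 10 genes in each group, 2 held a single mouse set well apart from the rest. About 1 in 20 such sets is expected to do so by chance. Naïve mouse 3 stood apart in Tlr4, with a log2 CPM of -0.32 (0.656 CPM, 7 counts), because the other 5 naïve mice had no count. Naïve mouse 5 stood apart in Myd88, with a log2 CPM of 3.86 (14.4 CPM, 213 counts) against 3.27 to 5.22 CPM in the other naïve mice. Without this mouse the Myd88 values of the groups did not overlap, and the log2 fold change was 1.81 in place of 1.36 (adjusted p = 0.153 in edgeR).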

How the results depend on the processing

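None of the 10 genes was called under any of the alternatives, with adjusted p values of at least 0.066. The count of all genes past the thresholds, 1 in the main comparison, was 362 with DESeq2's Wald test, 137 without the low-count filter, 30 with at least 10 counts in every mouse and 0 both without the 3 mice with conflicting labels and with the replicate block. Same-numbered mice are different animals, their deviations correlated between -0.2 and 0.182, and with the replicate block the log2 fold changes were 3.23 for Tnfrsf1a, 1.30 for Myd88 and 0.84 for Il6st. DESeq2 without the 3 mice, added after seeing the data, called 168 genes. Leaving out 1 mouse at a time gave 0 to 193 genes, the most without withdrawn mouse 2, and 6 without naïve mouse 2. The number of the 10 genes whose groups did not overlap was 0, or 3 without the 3 mice in edgeR and in DESeq2 (10.6% of tested genes), and 0 to 2 with 1 mouse left out (Tlr4 and Il6st without naïve mouse 3, Myd88 without naïve mouse 5, Tlr4 without withdrawn mouse 1, Tnfrsf1a without withdrawn mouse 2), where 1.31% to 3.62% of tested genes did so. Directions turned for 3 genes near 0. Il1r1 was -1.13 with voom and ran from -0.26 to 0.52 with 1 mouse left out. Rela was -0.0082 without the filter, -0.073 without the 3 mice and from -0.12 to 0.20 with 1 mouse left out. Nfkbia was -0.87 without the 3 mice, -0.81 in DESeq2 without them and from -0.28 to 0.40 with 1 mouse left out. The cause was not tested. With 1 mouse left out, Tnfrsf1a lay between 2.61 and 3.54, Il6st between 0.67 and 0.98, Myd88 between 0.99 and 1.81, and Nfkb1 between 0.64 (without withdrawn mouse 4) and 1.22. Nfkb1 was 0.34 with voom. The median of the gp130 list ran from 0.28 to 0.79 with 1 mouse left out and was 0.87 over 20 genes in DESeq2. With 1 mouse left out, the median of the adaptors and kinases ran from 0.028 to 0.28, that of the TNF list from 0.47 to 0.79 and that of the IkB list from 0.14 to 0.31. Likewise, that of the NF-kB subunits ran from 0.035 (without withdrawn mouse 2) to 0.84 and that of the NF-kB targets from 0.074 to 0.64. That of the interleukin-1 list ran from 0.0083 to 0.46 and that of the HMGB list from -0.057 to 0.29. In DESeq2 the HMGB median was 1.08 over 4 genes, against 0.16 over 3 genes in the main comparison. With the longest transcript as length the naïve TPM of Nfkb1 was 3.75 in place of 1.65 and that of Hmgb1 139 in place of 101, and the order was the same. Tlr3 and Tlr4 have no value in the main comparison, and Tlr4 passed the filter of edgeR in the fit without withdrawn mouse 1 alone among those with 1 mouse left out (4.83, adjusted p = 0.699). Depth limits the receptors, where 3 counts are up to 0.369 CPM.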
